A study of Mus musculus with 16 samples.

Results

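The chromatin of mouse chromosome 7 was followed from end to end in small cell lung cancer (SCLC) cells that differ in cell fate. SCLC tumors hold neuroendocrine (NE) cells and non-neuroendocrine (non-NE) cells, which were compared here as GFPneg and GFPhigh cells. Of 80367 peaks that the study listed as changed between them, 4259 lie on chromosome 7, and these were grouped by the position of their centre into 15 consecutive windows of 10 Mb, the last of which ends with the chromosome. All 4259 peaks were kept, with no filter on low values. The peaks had been chosen by the readout itself, since the authors kept a peak where its adjusted p was under 0.001 and its absolute log2 fold change between GFPhigh and GFPneg cells was over 1. Peaks outside these limits were not analysed here. The direction of each peak and the fact that it changed are therefore a description, with no test. "Opened" means more accessible in GFPhigh than in GFPneg cells, and "closed" means less accessible.

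ATAC-seq measures chromatin accessibility with the Tn5 transposase, which inserts sequencing adaptors where DNA is not packed away, so that regulatory elements and active promoters collect reads and form peaks. NE cells carry the neuron-like features of the rare NE cells of the airway, among them peptide hormones, secretory vesicles and ion channels. Notch signaling induces HES1, a repressor of the NE program, and cells that leave the NE state in this model resemble airway epithelial cells. Chromosome 7 carries several large gene families of odorant and pheromone receptors and zinc finger proteins, a cluster of cytochrome P450 genes of the airway, and imprinted clusters at both ends and in the middle.

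The cells came from TKO;Hes1GFP/+ mice, in which floxed alleles of Rb, p53 and p130 were deleted after intratracheal Ad-CMV-Cre, given to adult mice of mixed gender, and GFP was expressed from the regulatory regions of endogenous Hes1. GFPhigh and GFPneg cells were sorted from the pooled tumors of each mouse, so both groups share the 3 deletions, the reporter and the virus, and the CMV promoter does not restrict recombination to 1 cell type. The description of the series gives 4 pairs of populations from 3 mice, with 1 technical replicate, and the labels give 2 of the pairs to 1 mouse and show 8 libraries on 2 lanes each, which makes 16 runs. Each GFPneg population was the control from the same tumors as its GFPhigh partner. The deposited tables hold no value per library, and library depth is therefore unknown. No value below has an SD, an n or a test across samples. The signal of a peak is the authors' mean normalized count over all libraries. In these bulk populations, fewer cells of a type and less accessible chromatin per cell cannot be told apart.

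As a check of the labels over all chromosomes, 6 of 7 NE marker genes had closed peaks nearest to their start sites, 56 in all against 11 opened ones, and 5 of 5 non-NE markers had opened peaks, 57 against 20 closed. Among the NE markers, Insm1 alone had 28 of the closed peaks, and Syp had no peak. Chga had more opened than closed peaks, 8 against 6, although its 2 promoter peaks were closed. Of 6 leukocyte markers, 3 had an opened and 1 a closed peak, with 14 opened and 5 closed peaks in all, and Cd79a, Tyrobp and Itgam had none. The 4 endothelial markers had 13 opened and 35 closed peaks, and the 4 fibroblast markers 10 opened and 13 closed. The sort stained CD45, CD31 and TER-119, markers of leukocytes, endothelial cells and erythroid cells. The part of such other cells in the results below was not tested.

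The sequences at the centre of 8 peaks are shown first, because the genes and motifs described below turn on them. They are the highest closed peaks beside the start of the calcitonin gene-related peptide gene Calca, in the first kilobases of the imprinted gene Peg3 and upstream of the potassium channel gene Kcnc1, a closed peak over the microRNA gene Mir344g, and high opened peaks in the cytochrome P450 gene Cyp2b10, upstream of Cyp2s1, in Tead1 and far upstream of Nr2f2. The central 300 bp are given on the plus strand of GRCm38.p6, from RefSeq. Capitals mark exact matches, on either strand, of an AP-1 motif (TGACTCA), a TEAD motif (CATTCC), a FOX motif (TGTTTAC) and an E-box (CAGCTG), the kind of site that basic helix-loop-helix factors bind. The letters of the 4 motifs do not contain one another. A match is a string of letters and no evidence of binding, and the peaks were chosen for printing after their values were seen.
Calca (chr7:114636177-114636476): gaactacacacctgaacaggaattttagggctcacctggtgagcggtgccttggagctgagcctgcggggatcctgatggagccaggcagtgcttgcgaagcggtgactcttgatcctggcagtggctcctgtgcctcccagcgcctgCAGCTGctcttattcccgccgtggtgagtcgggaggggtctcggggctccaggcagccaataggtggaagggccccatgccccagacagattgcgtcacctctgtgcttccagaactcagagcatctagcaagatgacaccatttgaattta
Peg3 (chr7:6728469-6728768): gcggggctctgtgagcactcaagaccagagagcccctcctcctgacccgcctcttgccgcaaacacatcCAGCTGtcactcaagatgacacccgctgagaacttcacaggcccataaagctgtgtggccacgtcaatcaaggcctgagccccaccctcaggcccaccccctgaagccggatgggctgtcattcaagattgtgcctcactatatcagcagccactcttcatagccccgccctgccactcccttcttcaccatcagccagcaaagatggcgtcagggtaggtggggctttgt
Kcnc1 (chr7:46393156-46393455): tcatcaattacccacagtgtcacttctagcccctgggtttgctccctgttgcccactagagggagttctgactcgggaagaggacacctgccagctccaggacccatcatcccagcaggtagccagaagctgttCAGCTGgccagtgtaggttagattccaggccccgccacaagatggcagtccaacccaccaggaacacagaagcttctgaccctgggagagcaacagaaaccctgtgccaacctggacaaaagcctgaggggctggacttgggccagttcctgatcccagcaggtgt
Mir344g (chr7:61982337-61982636): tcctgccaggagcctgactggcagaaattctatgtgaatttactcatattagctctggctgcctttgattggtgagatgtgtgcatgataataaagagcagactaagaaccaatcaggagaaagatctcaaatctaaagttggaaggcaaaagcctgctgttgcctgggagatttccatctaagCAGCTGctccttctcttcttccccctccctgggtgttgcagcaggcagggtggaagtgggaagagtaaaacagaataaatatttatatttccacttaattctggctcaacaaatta
Cyp2b10 (chr7:25902101-25902400): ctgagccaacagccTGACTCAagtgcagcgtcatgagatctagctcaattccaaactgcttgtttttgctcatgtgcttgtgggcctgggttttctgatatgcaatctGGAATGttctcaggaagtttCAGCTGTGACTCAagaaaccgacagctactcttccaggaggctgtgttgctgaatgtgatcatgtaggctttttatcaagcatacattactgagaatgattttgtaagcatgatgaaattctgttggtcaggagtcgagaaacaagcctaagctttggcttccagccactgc
Cyp2s1 (chr7:25844876-25845175): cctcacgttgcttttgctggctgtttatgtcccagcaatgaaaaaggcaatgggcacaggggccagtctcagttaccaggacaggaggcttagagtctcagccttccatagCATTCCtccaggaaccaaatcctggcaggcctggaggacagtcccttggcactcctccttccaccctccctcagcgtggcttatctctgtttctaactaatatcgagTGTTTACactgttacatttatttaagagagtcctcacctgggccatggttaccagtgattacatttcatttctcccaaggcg
Tead1 (chr7:112788364-112788663): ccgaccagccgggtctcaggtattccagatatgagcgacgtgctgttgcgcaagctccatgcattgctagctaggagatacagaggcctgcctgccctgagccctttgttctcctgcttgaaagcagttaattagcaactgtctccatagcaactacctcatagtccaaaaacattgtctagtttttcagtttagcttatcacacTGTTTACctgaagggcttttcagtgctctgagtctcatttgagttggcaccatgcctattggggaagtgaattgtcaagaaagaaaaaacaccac
Nr2f2 (chr7:70606624-70606923): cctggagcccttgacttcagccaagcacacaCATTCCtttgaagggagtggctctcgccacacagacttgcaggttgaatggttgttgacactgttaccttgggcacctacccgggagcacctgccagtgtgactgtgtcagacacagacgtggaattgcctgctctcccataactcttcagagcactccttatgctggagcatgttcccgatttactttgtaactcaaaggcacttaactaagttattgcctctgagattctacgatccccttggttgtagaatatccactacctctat
All 4 closed sequences hold 1 E-box and none of the other 3 motifs. The Cyp2b10 sequence holds 2 AP-1 motifs, 1 TEAD motif and 1 E-box, the second AP-1 match directly beside the E-box. Cyp2s1 has 1 TEAD and 1 FOX match, Tead1 has 1 FOX match and Nr2f2 has 1 TEAD match.

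By number, chromosome 7 held 2058 opened and 2201 closed peaks, an opened share of 48.3% (95% Wilson interval 46.8 to 49.8). Over all listed peaks, 50.8% were opened and 49.2% were closed, and the rule that listed the peaks fixes these shares, so nothing is read from the distance between them. The direction depended on how peaks were counted, since the opened share was 54.5% weighted by width, 58.1% among peaks with a signal at or above the median and 58.0% among peaks of 300 bp or more. The intervals here cover counting error only, and they are too narrow where neighbouring peaks move together. The other chromosomes had an opened share of 50.9% (50.6 to 51.3), and chromosome 7 was the ninth lowest of 20 chromosomes. Chromosome 7 has much promoter-rich, GC-rich and gene-dense sequence, where opened peaks prevail elsewhere. When the peaks of the other chromosomes were weighted to the promoter position, GC content and gene density of the chromosome 7 peaks, their opened share was 55.1%. The observed share was 6.74 percentage points below this standardised share. With these 3 properties it was the lowest such difference of the 20 chromosomes, closely followed by chromosome 3 at -6.17, and chromosome 11 had the highest at 11.3. The rank depended on the properties used. Without gene density the difference was -4.41, the fifth lowest, and with promoter position alone it was -3.61, the seventh lowest, while chromosome 3 was lowest in both.

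Opened peaks were wider and stronger than closed ones, as on the other chromosomes. Their median width was 298 bp, compared with 244 bp among the closed ones. The median signal was 41.9 for opened peaks, with quartiles of 18.3 and 98.4, and 25.1 for closed peaks, with quartiles of 14.5 and 49.0. All listed peaks were split by signal into 4 equal classes. In the highest class, over 70.7, 68.4% (65.5 to 71.1) of the chromosome 7 peaks were opened, against 68.9% on the other chromosomes. In the class from 16.2 to 31.5 the opened share was 37.5% (34.7 to 40.5) on chromosome 7 and 42.6% (41.9 to 43.3) elsewhere, which was the largest gap of the 4 classes.

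Promoter peaks, with their centre within 1 kb of a transcription start site, made up 26.6% (24.7 to 28.5) of opened peaks and 13.9% (12.6 to 15.5) of closed peaks on chromosome 7. Both shares were higher than on the other chromosomes, at 22.0% and 9.43%. Of the 854 promoter peaks, 64.1% (60.8 to 67.2) were opened, against 70.8% elsewhere, and of the 3405 other, distal peaks 44.4% (42.7 to 46.1) were opened, against 47.2%. The opened share was lower farther from the nearest protein-coding start site. It was 68.4% within 1 kb, 53.1% from 1 to 10 kb, 47.3% from 10 to 100 kb and 26.9% beyond 100 kb, where the 780 peaks were mostly closed.

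The windows differed far more than the chromosome's average. Between 9.23% (5.36 to 15.4) of the peaks were opened in window 6, from 50 to 60 Mb, and 74.1% (68.2 to 79.2) in window 15, from 140 Mb to the end. The whole interval lay under 50% in 7 windows (1, 4 and 6 to 10) and over 50% in 5 (3 and 12 to 15). Against the standardised share, the whole interval lay lower in 10 windows (1 to 7 and 9 to 11) and higher in 3 (12, 13 and 14), and windows 8 and 15 held it in their interval. Of the 250 windows of 10 Mb on other chromosomes with at least 50 peaks, 34.8% lay wholly below and 24.4% wholly above their standardised shares. The density of opened peaks ranged from 1.2 per Mb in window 6 to 33.1 per Mb in window 15, and that of closed peaks only from 8.1 per Mb in window 1 to 24.1 per Mb in window 10.

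**Figure D1:**
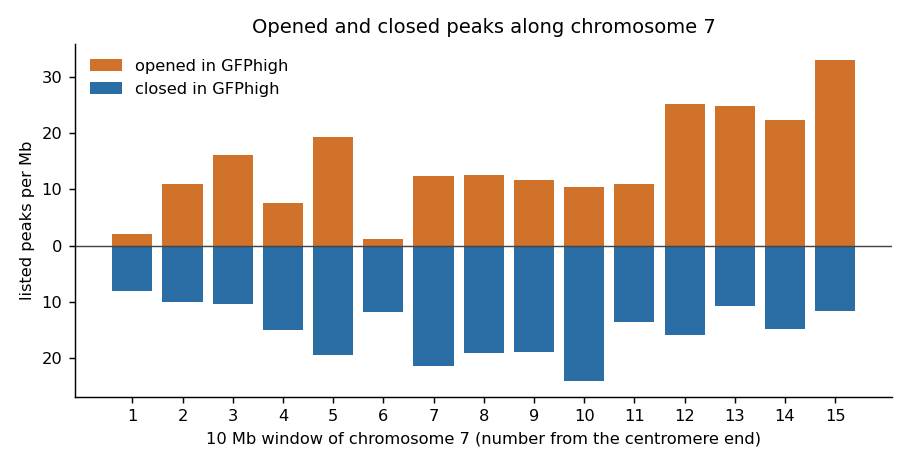
Listed peaks per Mb in each 10 Mb window of chromosome 7, opened peaks upward and closed peaks downward, with windows numbered from the centromere end. Opened peaks reach 22.4 to 33.1 per Mb in windows 12 to 15 and stay at or below 19.3 per Mb in windows 1 to 11, while closed peaks lie between 8.1 and 24.1 per Mb.

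**Figure D2:**
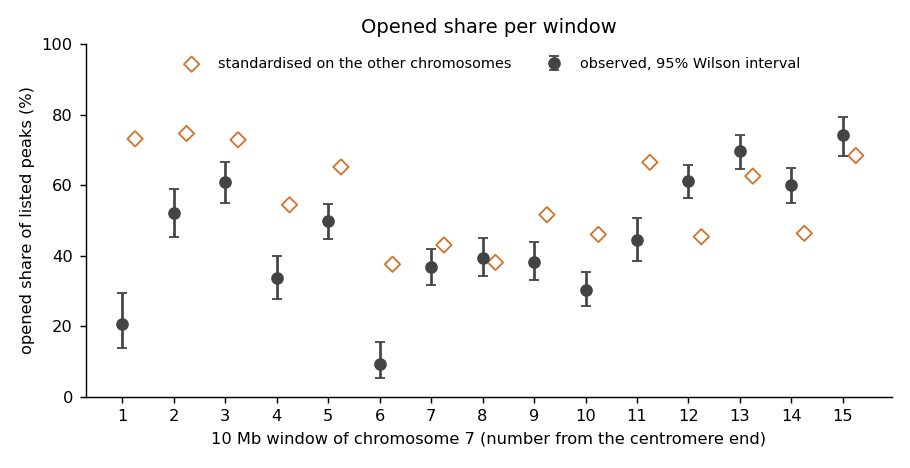
Opened share of the listed peaks in each 10 Mb window (points, with 95% Wilson intervals as bars) beside the share of the other chromosomes' peaks weighted to the same promoter position, GC content and gene density (diamonds). The points lie at 61.2%, 69.7%, 60.1% and 74.1% in windows 12 to 15, above the diamonds, and at 20.6% and 9.23% in windows 1 and 6, far below them.

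Relative to their standardised shares, the windows other than 8 and 15 fall into 2 stretches, with a boundary at 110 Mb that was set after the window shares were seen. The opened shares themselves overlap, since window 3 had 60.9% and window 14 had 60.1%. Before it, 40.1% (38.4 to 41.9) of 2875 peaks were opened, and after it 65.3% (62.8 to 67.8) of 1384 peaks. The standardised shares of both stretches were alike, at 55.5% and 54.1%, so the first lay 15.4 points below its standardised share and the second 11.2 points above it. The contrast was present in promoter peaks, at 52.9% and 83.2% opened, and in distal peaks, at 37.2% and 60.1%. It lay in the opened peaks, which went from 10.5 to 25.5 per Mb, while closed peaks went from 15.6 to 13.5 per Mb. Of 454 protein-coding genes that start after the boundary, 42.5% had an opened promoter peak and 7.93% a closed one. Of 1567 that start before it, 14.1% had an opened and 8.87% a closed promoter peak. Olfactory and vomeronasal receptor genes, which had few peaks, made up 378 of the latter and 19 of the former. Without them, 44.4% of 435 genes after the boundary and 18.5% of 1189 before it had an opened promoter peak, and 8.28% and 11.5% a closed one.

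In the account of the windows below, a peak belongs to the gene whose protein-coding start site is nearest, at any distance. Long intergenic stretches therefore weigh on the counts of single genes. Within 100 kb of a start, Tshz3 had 17 of its 38 closed peaks, Zfp536 3 of 26, Agbl1 13 of 28, Nav2 30 of 45 and Dlg2 10 of 25, and among opened peaks Nav2 had 11 of 20, Nr2f2 10 of 20 and Mgmt 2 of 20.

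At the centromere end, window 1 had 21 opened and 81 closed peaks, an opened share of 20.6% (13.9 to 29.4). Its standardised share was 73.1%, and the difference of -52.5 points was below that of every one of the 250 other windows, the lowest of which was -31.4. Of its 141 protein-coding genes, 20 had a closed and 8 an opened promoter peak. Its highest closed peak was the Peg3 peak printed above (chr7:6728238-6729001), which at a signal of 548 was the highest closed peak of the chromosome. Peg3 encodes an imprinted zinc finger protein expressed from the paternal allele. All 5 of its assigned peaks were closed, with signals from 139 to 548, and the 13 peaks assigned to its divergent neighbour Usp29 and the 4 assigned to Zim1 were closed as well. These peaks belonged to a run of 38 neighbouring closed peaks from 6410821 to 12803982 that passed through families of zinc finger and olfactory receptor genes. In the same window the synaptotagmin gene Syt5 had 2 closed promoter peaks, and the AMPA receptor auxiliary subunit gene Cacng7 had 5 closed peaks, 4 of them at its promoter. The highest opened peak of the window, of signal 229, lay upstream of the retinol dehydrogenase gene Rdh13.

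Windows 2 and 3, from 10 to 30 Mb, had 109 and 162 opened against 100 and 104 closed peaks. At 52.2% (45.4 to 58.8) and 60.9% (54.9 to 66.6), their shares were under the standardised 74.6% and 72.8%, the interval of window 2 held 50%, and its distal peaks alone were 44.8% opened. The highest opened peak of window 2 was the promoter of Relb, an NF-kappaB subunit, at a signal of 812. Fosb, an AP-1 subunit, had 4 opened peaks, 2 of them at its promoter, and 1 closed one. Window 3 holds the P450 cluster. Cyp2f2, a marker enzyme of club cells, had 5 opened peaks with signals from 26.9 to 310, including its promoter. Cyp2b10 had 5 opened peaks, up to the signal of 367 of the peak printed above, and Cyp2s1 had 6 opened peaks. None of these 3 genes had a closed peak, while their relative Cyp2a5 had 2 opened and 3 closed ones. Spint2, which encodes an inhibitor of epithelial serine proteases, had 5 opened peaks of signal 26.3 to 285 and no closed one. Its peaks were part of a run of 16 opened peaks from 29238060 to 29393133.

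Windows 4 and 5, from 30 to 50 Mb, showed both directions side by side. Window 4 had 76 opened and 150 closed peaks, an opened share of 33.6% (27.8 to 40.0). Its closed side was led by Tshz3 and Zfp536, which encode zinc finger transcription factors. Tshz3 had 38 closed and no opened peak over 881 kb, with signals from 4.99 to 115, and Zfp536 had 26 closed and 1 opened peak. In the same window the surroundings of Cebpa, a transcription factor of lung epithelium and other tissues, held 7 opened peaks, all intergenic, with a median signal of 141 and 4 closed ones with a median of 29.1. Window 5 had 193 opened and 195 closed peaks. Its promoters were opened for 62 of 226 protein-coding genes and closed for 17. The promoter of Rras, a RAS family GTPase, had the highest opened signal, at 829. Kcnc1, which encodes a fast-activating voltage-gated potassium channel, had 14 closed peaks and no opened one, from a signal of 148 at the upstream peak printed above to 10.3, with 3 of them at its own promoter.

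Nav2, a gene of axon outgrowth in window 5, held both directions side by side. It had 45 closed and 20 opened peaks, all of the opened ones and 41 of the closed ones in introns, and 59 of its peaks lay in the megabase from 49 to 50 Mb. That megabase held 99 peaks, the most of any on the chromosome. The closed Nav2 peaks had signals from 7.51 to 296 and the opened ones from 8.13 to 236. In their central 200 bp, 14 of the closed Nav2 peaks held the E-box and 9 the AP-1 motif, and none of the opened ones held either. The TEAD motif was in 5 of the closed and 4 of the opened peaks.

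Window 6, from 50 to 60 Mb, was the most closed of the chromosome, with 118 closed and 12 opened peaks. Only 20 protein-coding genes start in it, of which 7 had a closed and 0 an opened promoter peak. The longest run of closed peaks, 74 in a row over 5963 kb from 49883100 to 55846274, entered it from window 5. This run held 20 peaks assigned to Nell1, 12 to Luzp2, 7 each to Siglech and Svip, 6 to Gas2, 5 each to the vesicular glutamate transporter gene Slc17a6 and the glycine transporter gene Slc6a5, 4 each to 4933405O20Rik and Fancf, 2 to Ano5, and 1 each to Cyfip1 and Tubgcp5. A further run of 33 closed peaks, from 56225541 to 58396227, passed the GABA-A receptor subunit genes Gabra5 and Gabrg3. Gabra5 had 3 closed peaks and Gabrg3 1, each with its promoter among them, and neither gene had an opened peak.

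Window 7, from 60 to 70 Mb, had 124 opened and 214 closed peaks and began inside the Prader-Willi and Angelman imprinted region. A run of 27 closed peaks reached from 58800943 to 62348362, across Atp10a, Ube3a and Snurf, with 15 peaks nearest to Ndn. Most of the latter lie not at Ndn but among the Mir344 genes, which were looked at after the values were seen, a tandem cluster of 13 microRNA hairpins between 61683124 and 62085310. Within 10 kb of this cluster there were 12 listed peaks, all closed, with signals from 9.72 to 173. Closed peaks covered the 6 hairpins at the distal end, Mir344c at a signal of 36.7, Mir344 at 50.1, Mir344-2 at 82.0, Mir344g at 144, Mir344f at 88.3 and Mir344i at 94.0. None of the 7 hairpins before them was covered. Among the other 68 hairpins of chromosome 7 none lay under a closed peak, and 2 lay under an opened one. The hairpins are related copies, and how far reads of 1 copy were aligned to another was not measured.

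The mature 3p products show where the copies are alike and where they part, with the seed (bases 2 to 8) in capitals and the sequences from RefSeq.
mmu-miR-344-3p: uGAUCUAGccaaagccugacugu
mmu-miR-344c-3p: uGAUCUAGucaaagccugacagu
mmu-miR-344g-3p: cAGGCUCUagccaggggcuuga
mmu-miR-344f-3p: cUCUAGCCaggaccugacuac
mmu-miR-344b-3p: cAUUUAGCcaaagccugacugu
mmu-miR-344d-3p: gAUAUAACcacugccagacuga
mmu-miR-344e-3p: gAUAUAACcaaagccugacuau
mmu-miR-344h-3p: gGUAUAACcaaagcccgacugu
The first 4 come from hairpins under closed peaks and the last 4 from hairpins that were not covered. The seed is the same in miR-344 and miR-344c, and the same in miR-344d and miR-344e, which differ from the first pair, and each of the others has a seed of its own. The letters CAGCTG occur in 5 of the 13 hairpins themselves, 4 of them under a closed peak, and 2 of the 8 hairpins without these letters were also under one. Of the 12 closed peaks of the cluster 7 held the E-box somewhere in the peak, and the share over all closed peaks of chromosome 7 was 30.2%. The 12 peaks lie among related copies and were picked after their values were seen. Their matches are therefore not independent, and nothing is read from this comparison.

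Beyond the closed run, the imprinted genes Mkrn3 and Peg12 were opened, with 1 and 3 opened peaks and no closed one. Their promoter peaks had signals of 11.97 and 96.9. Later in window 7, Apba2, an adaptor of synaptic vesicle release, had 15 closed peaks and no opened one. Igf1r, the receptor of insulin-like growth factors, had 14 opened and 11 closed peaks, with median signals of 63.8 and 16.4. Aldh1a3, a retinoic acid synthesizing enzyme fixed here in the airway list, had 7 closed peaks and no opened one, with its promoter at a signal of 122.

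Windows 8 to 11, from 70 to 110 Mb, had opened shares of 39.4% (34.2 to 44.9), 38.2% (33.0 to 43.8), 30.3% (25.7 to 35.4) and 44.5% (38.5 to 50.8). Nr2f2, which encodes the nuclear receptor COUP-TFII, was the main opened locus of window 8, with 20 opened and 9 closed peaks. Its opened peaks spread over 692 kb, and the highest, at 495, was the highest opened peak of the window. That peak lay at the promoter of Gm44812, 208868 bp upstream of the nearest Nr2f2 start. Only 3 opened peaks lay inside Nr2f2 itself, and none at its promoter. Agbl1, with 28 closed and 1 opened peak, and Ntrk3, the neurotrophin-3 receptor, with 16 closed and no opened peak, were among the closed loci of the same window, as were Sv2b and Mctp2, with closed runs holding 18 and 16 of their peaks. In window 9, the metabotropic glutamate receptor gene Grm5 had 9 closed peaks up to a signal of 195 and no opened one. Its highest closed peak, of signal 348, was the promoter of Me3, which encodes a mitochondrial malic enzyme, and its highest opened peak, of signal 649, was the shared promoter of Cib1 and Gdpgp1.

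Window 10 had the most closed peaks of all, 241 against 105 opened. Tenm4, a teneurin of neural adhesion, had 86 closed peaks and 10 opened ones, more closed ones than any other gene when peaks are assigned at any distance. Within 100 kb of a Tenm4 start there were 12 closed and 3 opened peaks, fewer closed ones than the 30 of Nav2, the 17 of Tshz3 and the 13 of Agbl1. The closed Tenm4 peaks reached over 1754 kb, 54 of them intergenic and 28 intronic, with signals from 6.08 to 280. Of these 86 peaks, 19 held the E-box, 17 the AP-1 motif and 9 the TEAD motif. The highest closed peak of the window, of signal 449 (chr7:96661146-96662072), lies in an intron inside Tenm4, although the start site nearest to it is that of Nars2 at 289896 bp. Dlg2, a postsynaptic scaffold, had 25 closed and 5 opened peaks. Against this background Wnt11 had 9 opened and 4 closed peaks, with an opened promoter. Window 11 holds a large cluster of olfactory receptor genes, and 23 of its 320 genes had an opened and 16 a closed promoter peak. It also held a run of 26 closed peaks around Lmo1, a gene that was named after its values were seen.

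From window 12 on, opened peaks prevailed. Window 12, from 110 to 120 Mb, had 252 opened and 160 closed peaks, 15.8 points above its standardised share of 45.4%. Its highest opened peak was also that of the whole chromosome, the promoter of Smg1, a kinase of nonsense-mediated decay, at a signal of 1019. Tead1, which encodes a DNA-binding partner of YAP1, had 23 opened and 7 closed peaks, 20 of the opened ones in introns. The Tead1 promoter peak (chr7:112678860-112680153) had a signal of 324, and the intronic peak printed above 227. The neighbouring genes Mical2, an actin-oxidizing enzyme, and Parva, an adaptor of focal adhesions, had 21 and 9 opened against 4 and 2 closed peaks. The RAS family GTPase gene Rras2 had 13 opened and 7 closed peaks.

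The same window held the NE marker gene Calca, which had 4 closed peaks and no opened one, with signals of 89.2 at the promoter (chr7:114636158-114636497), 76.9 about 10 kb upstream and 26.6 and 15.1 at the others. Its relative Calcb had 3 closed peaks of signal 65.0, 12.6 and 9.94. With 11 closed peaks of the adjacent Insc, an adaptor of spindle orientation, they formed a run of 18 closed peaks from 114636158 to 115127995, inside the mostly opened window. At its far end Insc changed direction, with 4 opened among its 6 remaining peaks, from 115128490 on. All 4 opened Insc peaks held the TEAD motif somewhere in the peak, and none of them held the E-box. In contrast, Adm, which encodes the related peptide adrenomedullin, had 5 opened peaks and 1 closed one, with an opened promoter of signal 31.9.

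Window 13, from 120 to 130 Mb, had 248 opened and 108 closed peaks. Of its 166 protein-coding genes, 87 (52.4%) had an opened promoter peak and 9 a closed one. The longest run of opened peaks, 27 in 352 kb from 127448561 to 127800768, had 21 of its peaks at promoters, with a median signal of 133. It passed Setd1a, which encodes a histone methyltransferase, Fbrs, Zfp629, Bcl7c, Fbxl19, Prr14, Rnf40, Orai3, Phkg2, Hsd3b7, Ctf1, Ccdc189 and Tmem265. A second run of 25 opened peaks followed at 127841364, with 5 at Prss8, which encodes the channel-activating protease prostasin. The sodium channel subunit gene Scnn1g, a target of that protease, had 5 opened peaks and no closed one, with its promoter (chr7:121734146-121734791) at a signal of 342. Scnn1b beside it had 8 opened and 6 closed peaks. The closed promoter peaks of the window included both peaks of Sez6l2, a neuronal surface protein, of signal 28.5 and 16.8. Cacng3 had 7 closed peaks and no opened one.

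In window 14, from 130 to 140 Mb, 60.1% (55.0 to 64.9) of 373 peaks were opened, against 46.3% standardised. Fgfr2, the receptor of epithelial fibroblast growth factors, had 25 opened and 8 closed peaks, the most opened peaks of any gene at any distance. Within 100 kb of its starts it had 15 opened and 5 closed peaks, fewer opened ones than the 23 each of Tead1 and Fam53b and the 21 of Mical2. Its promoter peak had a signal of 254, and 16 neighbouring opened peaks in a row lay from 130040649 to 130252227. The annotation also gives Fgfr2 a start beside Ctbp2, which accounts for 1 of the opened peaks. Fam53b had 23 opened and 2 closed peaks and Mgmt, a DNA repair enzyme, 20 and 7. Htra1, a secreted protease, had 5 opened peaks and no closed one, 3 of them at promoters. The highest opened peak, of signal 836, was the promoter of the inositol phosphatase gene Inpp5a, and the highest closed one, of signal 171, lay in an intron 42674 bp downstream of the nearest start, that of Gpr26.

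Window 15 had 180 opened and 63 closed peaks. The promoter of Rassf7, of signal 939, was the second highest opened peak of the chromosome. The secreted mucin genes Muc5ac and Muc5b had opened promoters, of signal 102 and 99.99, and 1 closed Muc5b peak had a signal of 42.8. In the imprinted cluster of the window, Cdkn1c, which encodes a CDK inhibitor, had an opened promoter of signal 246 and 10 opened and 4 closed peaks nearest to its start, of which 8 opened and 4 closed ones lie inside Kcnq1. Slc22a18 and Phlda2 had 3 and 2 opened peaks and no closed one, and Kcnq1 had 8 opened and 2 closed peaks nearest to its start but 15 opened and 6 closed ones inside the gene. Igf2, at the other side of the cluster, had 5 closed peaks of signal 11.8 to 38.8 and no opened one, 2 of them at its promoters. Th, the catecholamine-synthesizing enzyme next to it, had 5 closed peaks, all weak, with signals up to 19.7. Ano1, a calcium-activated chloride channel, had 9 opened peaks and no closed one. Ccnd1, which encodes cyclin D1, had 9 opened and 3 closed peaks, none at its promoter, and the highest closed peak of the window, of signal 117, was among the latter. The synaptic scaffold gene Shank2 had 15 opened and 4 closed peaks, with 2 closed promoters.

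**Figure D3:**
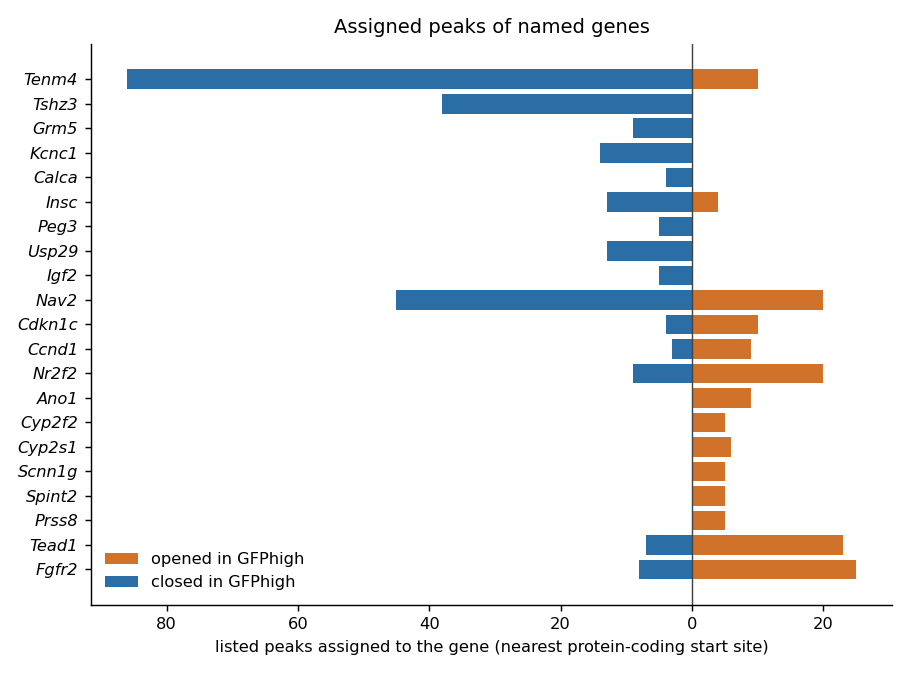
Number of opened (right) and closed (left) listed peaks whose nearest protein-coding start site belongs to the gene, for 21 genes named in the text. Tenm4 has 86 closed and 10 opened peaks, Tshz3, Kcnc1 and Calca have closed peaks only, Nav2 has many of both, and Cyp2f2, Scnn1g, Spint2 and Prss8 have opened peaks only.

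The fixed lists were compared with all genes. Of all 2021 protein-coding genes of chromosome 7, 725 (35.9%) had an assigned opened peak and 628 (31.1%) a closed one, and 414 (20.5%) had an opened and 175 (8.66%) a closed promoter peak. The lists are small, hold long genes with many peaks and were chosen with earlier results known, so the counts are a description.

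Of the 12 synaptic scaffold and neural adhesion genes, 11 had a closed and 6 an opened peak, with 232 closed against 52 opened peaks. Counting only peaks within 100 kb of a start, this was 99 closed against 32 opened peaks, and over all protein-coding genes 1631 closed against 1848 opened. At promoters, 9 of the 12 had a closed and 1 an opened peak. Lrfn3 was the gene without a closed peak, with 1 opened one. Of the 24 ion channel and neurotransmitter receptor genes, 16 had a closed and 8 an opened peak, and 8 had a closed and 3 an opened promoter. Grin2d, Kcnj11, Grik5 and Ano1 had opened assigned peaks only, and Trpm1 had 5 of each. The 3 opened peaks assigned to Kcnj11 lie inside Abcc8, whose own 1 assigned peak was closed, and no peak lay within 10 kb of Kcnj11. Within 10 kb of Grik5 there was also 1 closed peak. The list of peptide and Notch ligand genes, which as fixed also holds the enzyme gene Th and Insc, had closed peaks in 6 and opened ones in 4 of 9 genes, and 2 genes had an opened and 2 a closed promoter. The Notch ligand gene Dll3, a marker of NE SCLC cells, had no peak nearest to its start but 2 closed ones within 10 kb of the gene. Of the 13 vesicle and exocytosis genes, 6 had a closed and 4 an opened peak, which turned to 8 and 9 when peaks within 10 kb of the gene body were counted. For the ion channel list that count gave 17 genes with a closed and 13 with an opened peak, with 59 closed and 61 opened peaks. Over all protein-coding genes it gave a closed peak to 34.3% and an opened one to 42.9%, with 1989 closed and 2637 opened peaks. Among the vesicle genes, Doc2a, Prrt2 and Lin7b had no peak nearest to their starts but 3, 5 and 1 opened ones within 10 kb of the gene, with 2 closed ones at Prrt2, and Syt8 had 6 opened ones, 4 at its promoter.

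Of the 27 airway and secretory epithelial genes, 22 had an opened and 12 a closed peak, with 120 opened against 46 closed peaks. Opened promoters were found for 14 of them, and the promoter of Aldh1a3 was the 1 closed one. Of the 26 Hippo, adhesion and growth factor signalling genes, 25 had an opened and 19 a closed peak, with 153 opened and 78 closed peaks, and 15 had an opened promoter. The 1 closed promoter was a second Tead1 start site, and Ilk was the gene with no peak nearest to its start, although 2 opened peaks lay inside it. The 20 imprinted genes were split, with opened peaks in 8 and closed peaks in 10. Peg3, Usp29, Zim1, Ube3a, Ndn, Igf2 and Nap1l4 had closed peaks only, and Mkrn3, Peg12, Cd81, Phlda2 and Slc22a18 opened peaks only. Of 14 leukocyte marker genes on chromosome 7, 8 had no assigned peak, near the share of all protein-coding genes, of which 1016 of 2021 had none. Itgam, Tyrobp and Cd79a were among the 8, although within 10 kb of these 3 gene bodies lay 1, 2 and 1 opened peaks. The other leukocyte genes had 5 opened and 3 closed peaks in all, with closed promoter peaks at Coro1a and Lsp1. An opened peak was assigned to 35.7% of the list and to 35.9% of all genes. Within 10 kb of the gene bodies the list had 10 opened and 3 closed peaks.

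**Figure D4:**
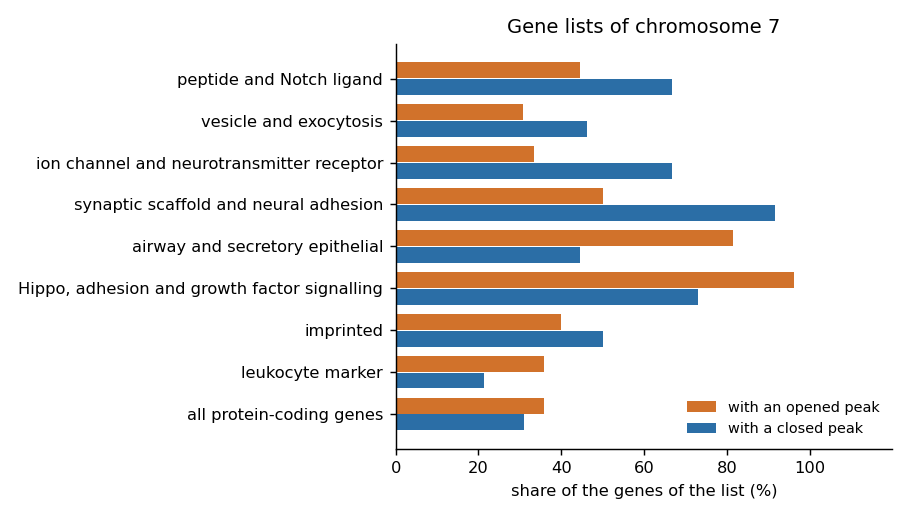
Share of the genes of each fixed list with at least 1 assigned opened peak (orange) or closed peak (blue), with all protein-coding genes of chromosome 7 as the bottom pair of bars. The closed bar is longer for the synaptic list (91.7% against 50%) and the opened bar for the airway list (81.5% against 44.4%), while all genes stand at 35.9% and 31.1%.

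The motif content of the peaks differed by direction and little by chromosome. In the central 200 bp, the AP-1 motif was in 21.5% (19.8 to 23.3) of the closed and 8.75% (7.60 to 10.05) of the opened peaks of chromosome 7, against 21.2% and 8.43% on the other chromosomes. The E-box was in 24.9% (23.2 to 26.8) of the closed and 12.4% (11.1 to 13.9) of the opened peaks. Its share of closed peaks was 22.5% (22.0 to 22.9) elsewhere. The intervals did not overlap, but they are too narrow where neighbouring peaks move together, so nothing is read from this. The TEAD motif showed the reverse direction, in 18.6% (16.99 to 20.3) of opened and 8.59% (7.49 to 9.83) of closed peaks. The FOX motif was in 7.14% of opened and 8.77% of closed peaks, with overlapping intervals, and in 6.82% and 9.76% elsewhere. Motifs of NKX2 (CACTTNA), NFI (TTGGCA) and RBPJ (TGGGAA), the DNA-binding partner of Notch, were in 17.8%, 18.03% and 20.6% of opened peaks and 13.8%, 12.5% and 16.7% of closed peaks, against 18.7%, 18.01% and 20.7% of opened and 14.98%, 13.5% and 16.3% of closed peaks elsewhere. A KLF motif (CCACNCCC) was more frequent on chromosome 7 than elsewhere in both directions, at 13.4% against 11.6% of opened peaks and 9.63% against 7.16% of closed peaks, beside a higher GC content. Matches of the TEAD and RBPJ motifs can share letters with each other. The median GC content was 52.3% in opened and 50.5% in closed peaks of chromosome 7, and 51.0% and 48.8% elsewhere.

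The direction of the motif shares was alike on both sides of the 110 Mb boundary. The TEAD motif was in 18.3% of opened and 8.95% of closed peaks before it, and in 19.03% and 7.29% after it. For AP-1, the shares were 8.15% of opened and 21.03% of closed peaks before the boundary and 9.51% and 23.1% after it. The E-box was in 11.9% of opened and 23.2% of closed peaks before it and in 13.2% and 31.3% after it, where fewer closed peaks were listed.

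**Figure D5:**
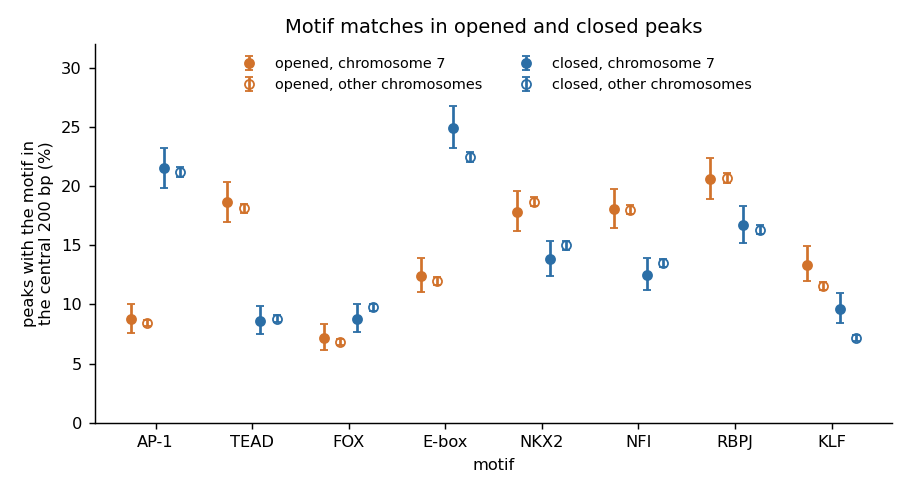
Share of peaks with an exact match of each motif in the central 200 bp, for opened (orange) and closed (blue) peaks of chromosome 7 (filled) and of the other chromosomes (open), with 95% Wilson intervals. AP-1 and the E-box lie higher in closed peaks (21.5% and 24.9% on chromosome 7) and TEAD in opened peaks (18.6%), and filled and open points lie close together for these motifs.

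Neighbouring peaks tended to share a direction. Of 616 neighbours at most 1 kb apart, 95.1% (93.1 to 96.6) had the same direction, and of 1478 that were 1 to 10 kb apart 71.2% (68.9 to 73.5). At 10 to 100 kb the share was 65.4%, and beyond 100 kb 67.2%. Independent peaks with the opened share of the chromosome would give 50.1%. The other chromosomes behaved alike, at 95.6% for up to 1 kb and 73.4% for 1 to 10 kb. Runs of 15 or more neighbours in 1 direction numbered 14 for opened and 29 for closed peaks. Long closed runs mostly crossed few genes over a long distance, as at Tshz3 with 44 peaks over 1448 kb. Long opened runs were mostly shorter, and their promoter content varied widely. All 15 peaks in 41.8 kb around Pnpla2 and Cracr2b lay at promoters, but only 2 of 17 at Mical2 and Parva and 0 of 16 at Fgfr2.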

How the data were processed

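ATAC-seq was measured in GFPhigh and GFPneg cells. Per the labels and the study's methods, the authors trimmed the reads, aligned them to mm10 with Bowtie2 (2.3.4.1), removed duplicates with Samtools, called narrow peaks with MACS2, merged the peaks of all samples, counted reads per peak with bedtools and compared the groups with DESeq2 (1.28.1), all versions from the submitters' processing notes. The 2 deposited lists hold peaks with adjusted p under 0.001 and absolute log2 fold change over 1, and 0 of 80367 rows were outside these limits. The signal is the authors' mean normalized count over all libraries. The further columns of the lists, which hold the authors' fold changes, errors, test statistics and p-values, were read to test these limits and for nothing else. Whether lanes were summed before the test is not given in the sources used here. The lists have 0 unused columns of single samples.

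Peaks were placed by their centre, 1-based, and annotated with GENCODE M21 basic. A promoter peak lay within 1 kb of any start site, and a peak was assigned to the gene of the nearest protein-coding start. Motifs were searched on both strands in the central 200 bp. Shares have 95% Wilson intervals, which cover counting error only. Standardised shares used strata of promoter position, 5 GC classes and 5 classes of gene density within 500 kb. With no value per sample, no test was made. The genes named are those of the fixed lists, the leading genes by assigned peaks, the highest peak of each window and the genes of long runs, and any others were chosen after their values were seen. The members and lists were chosen with earlier results of these data known. Python (3.11.15), numpy (2.4.6), pandas (2.3.3), scipy (1.17.1), pysam (0.24.0) and matplotlib (3.10.9) were used, and the functions were tested on simulated data (7 checks passed). Alternatives covered window size, promoter distance, peak width, signal and gene assignment. A few genes of the lists are counted but not reported here.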

Additional observations from a re-analysis of the deposited data

How the results depend on the processing

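Of 166 alternative values, 94 differed from the reported value by less than its interval or, for counts, by at most 1.5 times, and the other 72 moved further. Among the shares of the chromosome and its windows, 10 alternative values lay on the other side of 50% from the reported one, 3 of them for the chromosome and 7 in 4 windows. The opened share of chromosome 7 was above 50% when peaks were weighted by width (54.5%), at signals at or above the median (58.1%) and for peaks of 300 bp or more (58.0%), and was 44.4% in distal peaks alone. With peaks of 300 bp or more, window 8 reached 52.6%, window 5 66.7% and window 11 52%, and at signals at or above the median windows 5 and 11 reached 64.95% and 52.5%. Window 5 was at 58.7% weighted by width, and window 2 at 44.8% in distal peaks. Windows of 5 Mb had a lowest share of 0%, and windows shifted by 5 Mb a highest share of 89.5%, which is 17 of 19 peaks in the last piece of 0.441 Mb and compares with 76.03% in the highest full window. The standardised share was 52.7% without gene density and 51.9% from promoter position alone. The promoter share was 38.3% of opened and 23.1% of closed peaks at 3 kb, and 23.7% and 10.2% with protein-coding starts only. Over whole peaks, motifs were found in 12.1% of opened and 24.5% of closed peaks for AP-1, 26.1% and 11.4% for TEAD and 20.02% and 30.2% for the E-box, and in distal opened peaks AP-1 was in 10.2% and TEAD in 20.8%. Counting peaks within 10 kb of the gene body gave opened peaks to 9 vesicle genes and 13 ion channel genes. At signals at or above the median the longest runs were 41 opened and 34 closed peaks, and the shares before and after 110 Mb were 48.98% and 78.1%. A boundary at 120 Mb gave 42.8% before it, and one at 100 Mb gave 62.2% after it. The boundary alternatives, the signal split and the merging of peaks within 100 bp around it, and the leaving out of the genes with the most peaks were chosen after seeing the data. The cause of these changes was not tested.

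No paired analysis was possible because the lists hold no value per sample and no test was made, and leaving out a replicate was not possible for the same reason. Depth per library is unknown.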

Other observations

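The chemosensory receptor genes of chromosome 7 had few listed peaks. Of 243 olfactory receptor genes, 4 had an assigned opened and 8 a closed peak, and of 154 vomeronasal receptor genes 0 had an opened and 2 a closed one. Without these families, 721 (44.4%) of the remaining 1624 protein-coding genes had an opened and 618 (38.1%) a closed peak.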
